A study of Mus musculus with 9 samples.

Results

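The genes of cholesterol and fatty acid synthesis were followed across 3 groups of mouse tissue: normal thymus, tumor of the thymus, and tumor labelled as XIST resistant. The members were a list of 30 named genes of these pathways, and every probe set whose single symbol in the platform's gene table is one of them was taken. This gave 68 probe sets for 29 members, out of 34945 probe sets with 1 symbol in the table. Acat2, the cytosolic thiolase at the head of the mevalonate pathway, had no such probe set and was not analysed here. All 29 members passed the filter on dim probe sets and were among the 11671 genes tested.

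Total RNA was hybridised to the Affymetrix Mouse430_2 array, with 3 arrays of normal thymus, 3 of tumor and 3 of resistant tumor. XIST is the noncoding RNA by which mammalian females silence 1 of their X chromosomes. The labels give no strain, genotype, age, sex or treatment for any group. Nor do they tie an array to an animal, so the p-values describe only how far these arrays spread, and that spread may be technical. The deposited values are MAS5 signals in arbitrary units, and a signal is compared only with that of the same probe set on other arrays. Median signals were 13.9 to 25.8 per array. The 4 arrays without poly-A spike-in signal (normal thymus 1, tumor 1 and resistant tumor 1 and 2) had medians of 23.6 to 25.8, and the 5 with it had medians of 13.9 to 17.8. With 3 arrays a group, their number limits the precision.

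Cholesterol is made from acetyl-CoA by way of mevalonate and isoprenyl diphosphates, which are joined into squalene, closed into lanosterol and trimmed to cholesterol. Fatty acids are made from the same acetyl-CoA, which ATP citrate lyase supplies, by acetyl-CoA carboxylase and fatty acid synthase. They are then lengthened and desaturated. SREBP transcription factors, held in the endoplasmic reticulum with SCAP and INSIG when sterols are plentiful, drive most of these genes when sterols are scarce, and proliferating lymphocytes draw on both pathways for membrane. Thymus also holds adipocytes and lies beside fat, a tissue in which Thrsp, Fasn and Scd1 are strongly expressed.

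Most of the pathway was higher in both kinds of tumor than in normal thymus, and 1 gene, Thrsp, was far lower in tumors. Against normal thymus, 21 of the 29 members rose in tumors, 1 fell and 7 did not pass the test (limma, adjusted p under 0.05 over all 11671 genes). Of all tested genes 42.4% were called there, 23.3% as higher and 19.1% as lower. The rise was 1 or more on the log2 scale for 11 members (10.4% of all genes), and the fall of Thrsp also passed that size (11.2% of all genes). The median log2 change of the members was 0.79, against 0.05 over all tested genes. In resistant tumors 20 of 29 rose, 12 of them by 1 or more, none fell and 9 did not pass. Of all tested genes 43.3% were called there, 23.1% as higher, 10.5% as higher by 1 or more, and 20.2% as lower. There the median was 0.77, against 0.06 over all tested genes. Both comparisons use the same normal arrays. The groups did not overlap, with the tumor group higher, for 23 members in tumors (30.1% of all genes) and 20 in resistant tumors (28.9%). With the tumor group lower they did so for Thrsp alone, in tumors (25.2% of all genes) and in resistant tumors (25.7%).

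These counts depended on the scaling between arrays. With array medians set equal, 12 members rose in tumors and 4 in resistant tumors, although the members' medians were 0.98 and 0.71, against 0.24 and 0.0021 over all genes. Over all genes the same setting called 2287 in tumors, against 4943 without it. In resistant tumors it called 2034, against 5049 (878 higher and 1156 lower, against 2696 and 2353 without it). With the set of arrays with or without spike-in signal as a block, 23 and 22 members rose. Calls over all genes also varied with the setting, from 2287 to 6854 in tumors and from 2034 to 6862 in resistant tumors. The members' counts are to be read beside that. Within the arrays without spike-in signal the members' median was 0.79 in tumors and 0.78 in resistant tumors, and within those with it 0.77 and 1.01.

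**Figure D1:**
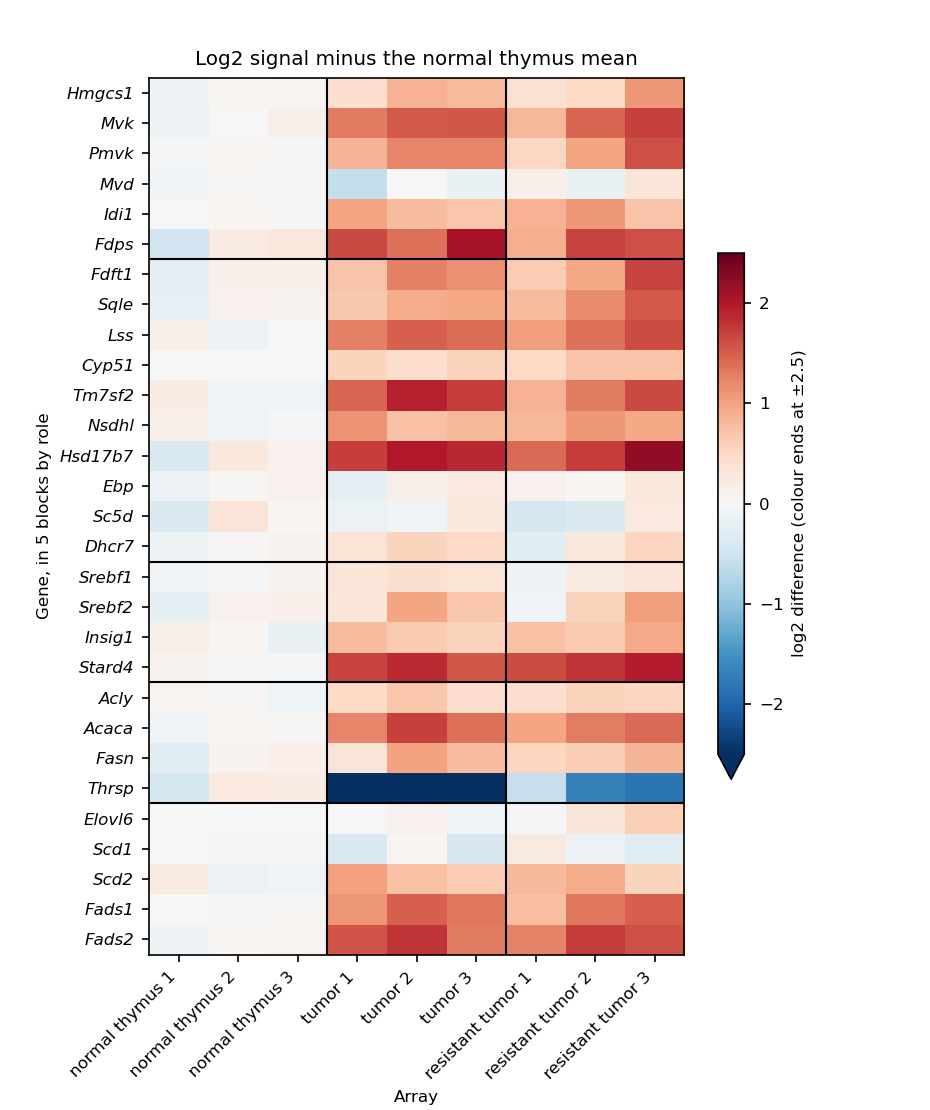
Log2 signal of each of the 29 members (rows, in blocks for the mevalonate arm, the sterol arm, sterol sensing and transport, fatty acid synthesis, and elongation and desaturation) on each of the 9 arrays (columns), minus the gene's mean over the 3 normal arrays. Most rows are red on all 6 tumor arrays, while Thrsp is blue on them and beyond the end of the scale in the 3 tumor arrays.

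Promoter sequences are shown because most of the members moved together. RefSeq promoter windows (assembly GRCm38.p6, 250 bases before to 50 after an annotated start) were given for 23 of the 30 members. On either strand, 19 of these 23 held CCAAT, the core of the box that the factor NF-Y binds beside SREBP sites, against 42.7% of the 9431 tested genes with a window. It was found in 13 of 15 members that rose in tumors and in 6 of 7 other tested members. GGGCGG, the box bound by SP1, was in 18 of 23, against 68.8% of tested genes, and CACGTG, the E-box, in 4 of 23, against 11.7%. TCACNCCAC, a strict form of the sterol regulatory element, was in 1 of 23, Hmgcs1, against 1.37% of tested genes. Over all 32851 windows the shares were 37.4% for CCAAT, 35.7% for GGGCGG, 7.15% for CACGTG and 1.24% for TCACNCCAC. A match is a description of letters, not a bound site. The 250 bases before the start are printed for Hmgcs1 (the sterol element), Mvk (the most CCAAT boxes), Insig1 (the sensor), Fasn (whose boxes overlap on both strands) and Thrsp (the gene that fell), 5′ to 3′ on the gene's strand, with CCAAT or its complement ATTGG and, in Hmgcs1, TCACCCCAC in capitals.
Hmgcs1 (GRCm38.p6, chr13:119690101-119690350, plus strand): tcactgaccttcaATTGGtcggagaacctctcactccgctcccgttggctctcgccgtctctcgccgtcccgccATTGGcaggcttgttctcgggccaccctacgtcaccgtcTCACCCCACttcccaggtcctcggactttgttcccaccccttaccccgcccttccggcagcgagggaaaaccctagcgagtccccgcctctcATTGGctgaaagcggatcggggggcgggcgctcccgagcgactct
Mvk (GRCm38.p6, chr5:114444019-114444268, plus strand): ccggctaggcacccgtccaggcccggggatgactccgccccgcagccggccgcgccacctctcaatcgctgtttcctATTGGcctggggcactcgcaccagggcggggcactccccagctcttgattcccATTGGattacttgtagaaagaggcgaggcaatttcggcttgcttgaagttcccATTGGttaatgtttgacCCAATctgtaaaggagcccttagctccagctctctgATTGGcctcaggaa
Insig1 (GRCm38.p6, chr5:28071162-28071411, plus strand): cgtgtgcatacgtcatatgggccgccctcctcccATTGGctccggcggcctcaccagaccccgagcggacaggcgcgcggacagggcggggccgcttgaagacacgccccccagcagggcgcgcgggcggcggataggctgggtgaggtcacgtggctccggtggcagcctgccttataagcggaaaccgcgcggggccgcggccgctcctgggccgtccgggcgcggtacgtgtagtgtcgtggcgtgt
Fasn (GRCm38.p6, chr11:120824548-120824797, minus strand): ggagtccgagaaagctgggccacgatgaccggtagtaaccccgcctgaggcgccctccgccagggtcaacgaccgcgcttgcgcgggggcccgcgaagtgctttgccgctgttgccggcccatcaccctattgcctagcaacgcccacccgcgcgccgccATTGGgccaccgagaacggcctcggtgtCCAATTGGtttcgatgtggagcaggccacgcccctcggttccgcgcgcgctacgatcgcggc
Thrsp (GRCm38.p6, chr7:97417551-97417800, minus strand): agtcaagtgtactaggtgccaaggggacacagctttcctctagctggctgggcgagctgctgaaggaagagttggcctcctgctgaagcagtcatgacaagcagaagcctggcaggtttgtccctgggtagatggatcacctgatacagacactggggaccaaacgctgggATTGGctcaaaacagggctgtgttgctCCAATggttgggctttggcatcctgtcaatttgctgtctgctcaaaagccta
The sterol element of Hmgcs1 begins 137 bases before the start, between CCAAT boxes on either side of it. Mvk holds 5 boxes and rose by 1.47 in tumors. Thrsp, with 2 boxes, fell there.

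The mevalonate arm rose in 5 of 6 tested members in each kind of tumor. Mvk, mevalonate kinase, had signals of 48.2, 53.3 and 57.5 on the normal arrays, 131, 153 and 155 on the tumor arrays and 94.1, 144 and 173 on the resistant arrays. Every tumor array lay above every normal array, and the log2 changes were 1.47 ± 0.22 in tumors (± SE, with 3 arrays a group; limma adjusted p = 0.000534) and 1.33 ± 0.22 in resistant tumors (adjusted p = 0.000949). Pmvk, the next kinase of the pathway, had signals of 77.7, 82.4 and 77.9 in normal thymus, 142, 184 and 186 in tumors and 114, 157 and 243 in resistant tumors. Its normal arrays were nearly equal and its resistant arrays the most spread, with log2 changes of 1.10 ± 0.25 (adjusted p = 0.00553) and 1.04 ± 0.25 (adjusted p = 0.00726). Fdps, farnesyl diphosphate synthase, whose product also feeds protein prenylation, had signals of 203, 324 and 343 in normal thymus, 882, 733 and 1184 in tumors and 528, 917 and 864 in resistant tumors. It rose by 1.69 ± 0.27 on the log2 scale in tumors (adjusted p = 0.00087) and by 1.40 ± 0.27 in resistant tumors (adjusted p = 0.00257), a mean increase of 3.24-fold and 2.65-fold, with no overlap with normal thymus.

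Hmgcs1, the cytosolic HMG-CoA synthase, and Idi1, the isopentenyl diphosphate isomerase, rose less. Mean signals of Hmgcs1 were 860.1 ± 60.4 in normal thymus, 1404 ± 217 in tumors and 1386 ± 384 in resistant tumors (SD, n = 3), with log2 changes of 0.70 (adjusted p = 0.0129, limma) and 0.66 (adjusted p = 0.0174). For Idi1 the means were 404 ± 11.3, 713 ± 74.2 and 750.5 ± 96.5, with changes of 0.82 (adjusted p = 0.00054) and 0.89 (adjusted p = 0.000338). Mvd, which decarboxylates mevalonate diphosphate, was the one tested member of the arm not called, with signals of 53.7, 57.1 and 57.2 in normal thymus, 37.1, 56.2 and 50.2 in tumors and 61.1, 49.7 and 69.0 in resistant tumors. The groups overlapped. Its log2 changes were -0.25 ± 0.21 (limma adjusted p = 0.373) and 0.085 ± 0.21 (adjusted p = 0.767).

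In the sterol arm, 7 of 10 members rose in each kind of tumor. Hsd17b7, a reductase of sterol ketones, had the largest increase of any member in tumors at the brightest probe set of each gene, with signals of 29.1, 45.3 and 40.6 in normal thymus, 124, 152 and 140.1 in tumors and 100.3, 127 and 176 in resistant tumors. The lowest tumor array was above the highest normal one, and the log2 changes were 1.87 ± 0.24 (limma adjusted p = 0.000205) and 1.79 ± 0.24 (adjusted p = 0.000277). Tm7sf2, a sterol reductase, had normal signals of 69.1, 56.5 and 57.2, tumor signals of 166, 232 and 200.0 and resistant signals of 111, 149 and 191. It rose by 1.70 ± 0.21 (adjusted p = 0.000201) and 1.27 ± 0.21 (adjusted p = 0.00113) on the log2 scale, with no overlap. Lss, the cyclase that makes lanosterol, went from 57.8, 47.0 and 51.8 in normal thymus to 124, 146 and 136 in tumors and 108, 134 and 161 in resistant tumors. Its log2 changes of 1.38 ± 0.17 (adjusted p = 0.000213) and 1.35 ± 0.17 (adjusted p = 0.000251) were nearly the same. A dimmer probe set of Lss read 25.3, 26.05 and 20.5 in normal thymus, then 128, 99.6 and 105, then 98.1, 95.9 and 130.1, and its rise of 2.21 ± 0.18 in tumors (adjusted p = 0.000132 in the fit of all 45101 probe sets) was above that of Hsd17b7. Averaged over probe sets, Lss had the largest increase in tumors, 1.79 against 1.39 for Hsd17b7.

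Squalene synthesis and its oxidation moved in the same direction. Fdft1, squalene synthase, had signals of 198, 257 and 255 in normal thymus, 383, 560.1 and 522 in tumors and 365, 458 and 754 in resistant tumors. It rose by 1.04 ± 0.26 (limma adjusted p = 0.00885) and 1.09 ± 0.26 (adjusted p = 0.00688), with the widest spread among the resistant arrays. Sqle, squalene epoxidase, had 174, 215 and 212 in normal thymus, 317, 378 and 388 in tumors and 345, 451 and 581 in resistant tumors. Here the log2 change was 0.85 ± 0.19 in tumors (adjusted p = 0.00511) and 1.17 ± 0.19 in resistant tumors (adjusted p = 0.000885). Nsdhl, an X-linked sterol dehydrogenase, rose by 0.89 and 0.96 (adjusted p = 0.000809 and 0.000547, limma), and Cyp51, the lanosterol demethylase, by 0.52 and 0.64 (adjusted p = 0.00758 and 0.00266).

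Ebp, Sc5d and Dhcr7, which act in the late sterol steps, did not pass the test. Ebp, a sterol isomerase, had log2 changes of 0.055 ± 0.14 in tumors (limma adjusted p = 0.792) and 0.14 ± 0.14 in resistant tumors (adjusted p = 0.44), with mean signals of 321 ± 27.2, 335 ± 54.1 and 354 ± 26.8 across the 3 groups (SD, n = 3). For Sc5d, a sterol desaturase, the changes were -0.0012 ± 0.23 (adjusted p = 0.997) and -0.17 ± 0.23 (adjusted p = 0.575) at the brightest probe set. Dhcr7, the reductase that completes cholesterol, had changes of 0.45 ± 0.19 (adjusted p = 0.076) and 0.18 ± 0.19 (adjusted p = 0.48). Its 3 tumor arrays nevertheless lay above its 3 normal arrays, at 379, 442 and 417 against 276, 307 and 321, while the resistant arrays at 248, 362 and 435 overlapped both. Blocking on the replicate number made the tumor change of Dhcr7 a call (adjusted p = 0.0185), as did blocking on the spike-in set (0.0161). Ebp was called higher in resistant tumors under the spike-in block (0.23 ± 0.088, adjusted p = 0.0433).

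**Figure D2:**
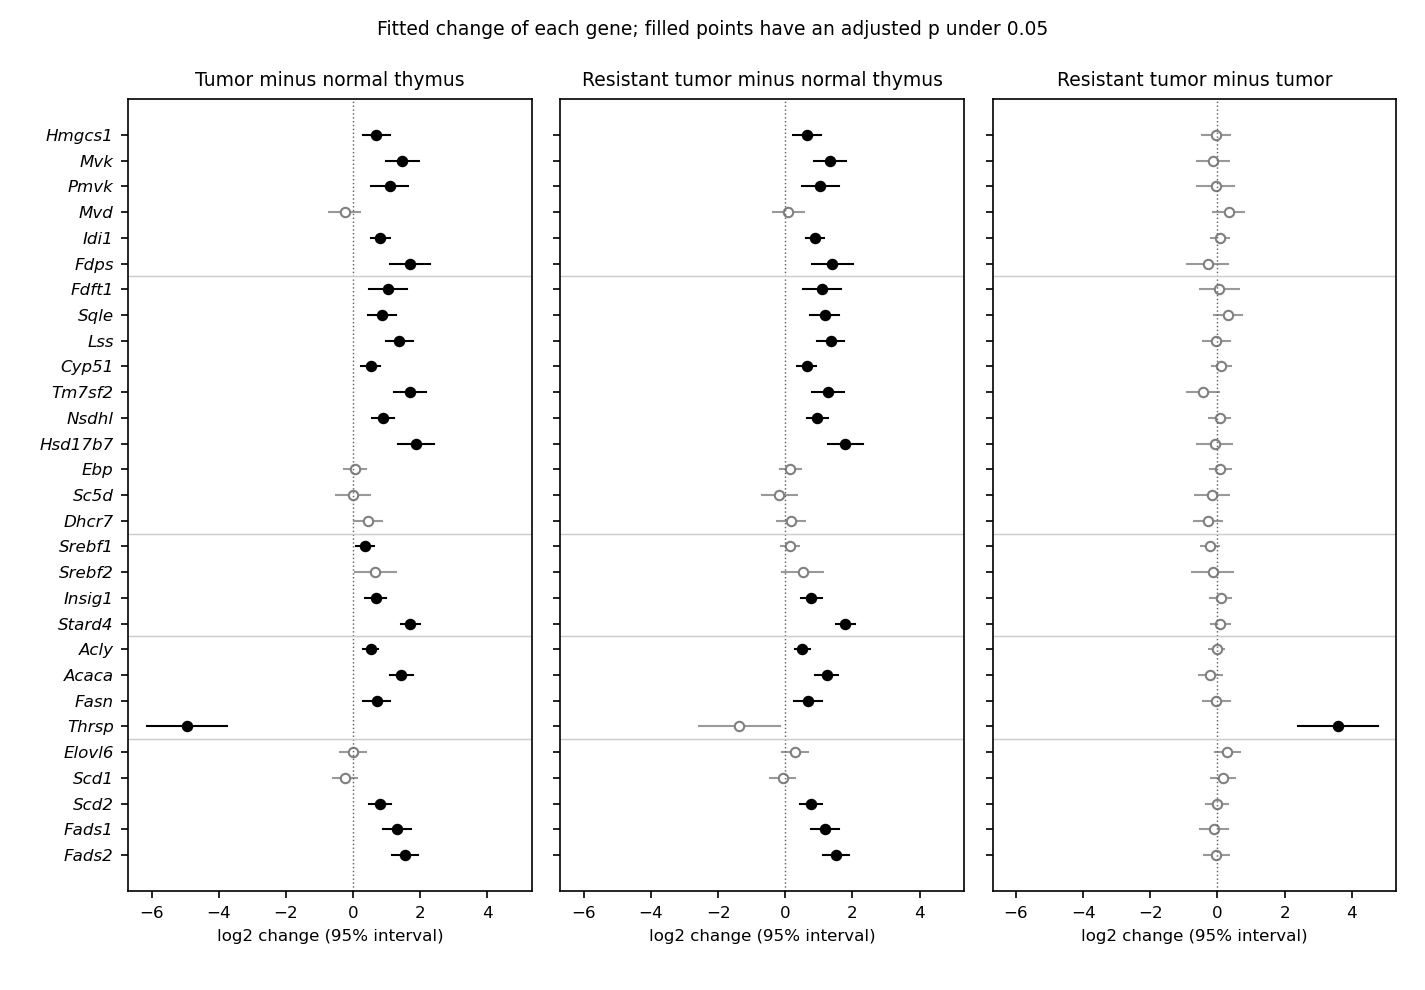
Fitted log2 change of each member with its unadjusted 95% interval, for tumor minus normal thymus, resistant tumor minus normal thymus and resistant tumor minus tumor, on 1 shared axis. Filled points have a limma adjusted p under 0.05. The first 2 panels show 21 and 20 filled points to the right of 0, with Thrsp filled far to the left in the first, and the third shows 1 filled point, Thrsp.

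Among the 4 genes of sterol sensing and transport, 3 rose in tumors and 2, Stard4 and Insig1, in resistant tumors. Stard4 encodes a carrier that moves cholesterol between membranes. Its signals were 164, 148 and 150.4 in normal thymus, 498, 560.2 and 452 in tumors and 476, 529 and 602 in resistant tumors. All 6 tumor arrays were well clear of the normal ones, and Stard4 had the smallest adjusted p of the members in both comparisons, with log2 changes of 1.70 ± 0.13 (limma adjusted p = 8.2e-06) and 1.79 ± 0.13 (adjusted p = 6.83e-06). Insig1, which retains SREBP in the endoplasmic reticulum and is itself an SREBP target, had 162, 149.7 and 127 in normal thymus, 253, 230.4 and 216 in tumors and 242, 228 and 279 in resistant tumors. It rose by 0.67 ± 0.14 (adjusted p = 0.00334) and 0.77 ± 0.14 (adjusted p = 0.00161), with no overlap.

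Srebf1, the SREBP gene tied mainly to fatty acid synthesis, had normal signals of 782, 804 and 864, tumor signals of 1024, 1079 and 1031 and resistant signals of 744, 949 and 1023. It rose by 0.36 ± 0.12 in tumors (limma adjusted p = 0.0387), a call lost without the filter (adjusted p = 0.0593), without the intensity trend (0.0705), with array medians set equal (0.366) and without any 1 of 7 of the 9 arrays (0.0528 to 0.112). In resistant tumors the change was 0.14 ± 0.12 (adjusted p = 0.392), and the groups overlapped. Srebf2, the gene tied mainly to cholesterol synthesis, had 275, 344 and 352 in normal thymus, 398, 633 and 519.8 in tumors and 303, 478 and 668 in resistant tumors. Its tumor arrays lay above its normal ones but varied widely, and neither change passed the test (0.66 ± 0.27, adjusted p = 0.0763, and 0.51 ± 0.27, adjusted p = 0.155). Both changes were called as higher under the replicate block (adjusted p = 0.00696 and 0.0227) and under the spike-in block (0.00578 and 0.00528). SREBP proteins are controlled by cleavage, which these arrays do not measure.

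Fatty acid synthesis genes rose with the exception of Thrsp. Acaca, acetyl-CoA carboxylase, had signals of 126, 139.7 and 138 in normal thymus, 315, 439 and 349.5 in tumors and 267, 326 and 359 in resistant tumors. Its log2 changes were 1.44 ± 0.16 (limma adjusted p = 8.47e-05) and 1.23 ± 0.16 (adjusted p = 0.000231), with no overlap. Averaged with its dimmer second probe set, the changes were 0.69 and 0.78 and neither was called (adjusted p = 0.155 and 0.11). Acly, ATP citrate lyase, rose by 0.53 ± 0.10 (adjusted p = 0.00211) and 0.51 ± 0.10 (adjusted p = 0.00273), from a mean signal of 1138 ± 71.0 to 1646 ± 164 and 1616 ± 89.3 (SD, n = 3). Fasn, fatty acid synthase, rose by 0.70 ± 0.18 (adjusted p = 0.0126) and 0.67 ± 0.18 (adjusted p = 0.0157), from 466 ± 69.8 to 765 ± 179 and 738 ± 82.8.

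Of the elongation and desaturation genes, 3 of 5 rose in each kind of tumor. Fads1, a desaturase of polyunsaturated fatty acids, had signals of 171, 168 and 175 in normal thymus, 368, 481 and 427 in tumors and 289, 426 and 484 in resistant tumors. It rose by 1.30 ± 0.19 (limma adjusted p = 0.000425) and 1.19 ± 0.19 (adjusted p = 0.000737). Its neighbour in the pathway Fads2 had 90.1, 102 and 104 in normal thymus, 292, 341 and 241 in tumors and 232, 329 and 296 in resistant tumors. That was a rise of 1.55 ± 0.17 (adjusted p = 9.22e-05) and 1.52 ± 0.17 (adjusted p = 0.000103), with all tumor arrays above all normal ones.

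The stearoyl-CoA desaturase paralogs Scd1 and Scd2 place the first double bond in saturated fatty acids. Scd2 rose by 0.79 ± 0.14 (limma adjusted p = 0.00186) and 0.77 ± 0.14 (adjusted p = 0.00222), from signals of 1772, 1362 and 1424 in normal thymus to 3058, 2497 and 2336 in tumors and 2645, 2889.6 and 2225 in resistant tumors. Scd1 at its brightest probe set was 449, 460.3 and 441 in normal thymus, 348, 467 and 339 in tumors and 528, 405 and 366 in resistant tumors, with changes of -0.24 ± 0.16 (adjusted p = 0.269) and -0.074 ± 0.16 (adjusted p = 0.746). The dimmer probe set of Scd1 read 34.1, 31.1 and 25.1 in normal thymus, 62.6, 52.0 and 48.3 in tumors and 49.8, 60.4 and 56.5 in resistant tumors. Fitted with all 45101 probe sets, it rose by 0.85 ± 0.19 (adjusted p = 0.0143) and 0.89 ± 0.19 (adjusted p = 0.0119), so the probe sets of Scd1 disagree. The difference between Scd1 and Scd2 was not tested. Elovl6, which lengthens palmitate, had changes of -0.0022 ± 0.17 (adjusted p = 0.993) and 0.30 ± 0.17 (adjusted p = 0.189) from normal signals of 99.9, 102 and 99.5, and its resistant arrays read 98.5, 124 and 153.

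Thrsp, the thyroid hormone responsive gene that promotes lipogenesis in fat and liver, was the one member called lower in tumors, where 21 others rose and 7 did not pass the test. Its brightest probe set had signals of 67.0, 107 and 104 in normal thymus, 1.32, 4.70 and 4.04 in tumors and 60.9, 28.2 and 25.7 in resistant tumors. The 3 groups did not overlap: normal thymus was highest, resistant tumor intermediate and tumor lowest. Thrsp passed the filter on dim probe sets through the normal and resistant arrays. All 3 tumor arrays were below the median signal of their array, so the tumor level is only an upper bound there. Thrsp was at least 5.2-fold lower in tumors than in normal thymus (fitted log2 change -4.96 ± 0.53, limma adjusted p = 7.82e-05). In resistant tumors the change from normal thymus was -1.36 ± 0.53 (adjusted p = 0.0632). Resistant tumors were at least 2.02-fold higher than tumors (fitted log2 change 3.59 ± 0.53, adjusted p = 0.0271). Thrsp was the one member called between the tumor groups, and the one whose resistant arrays all lay above its tumor arrays (4.41% of all genes). The call between the tumor groups was lost under 7 other settings (adjusted p = 0.0732 to 0.172) and without any 1 of 6 of the 9 arrays (0.0532 to 0.549), and Thrsp was not tested under the stricter filter. The second probe set read 43.1, 32.9 and 34.0 in normal thymus, 2.92, 10.9 and 10.7 in tumors and 32.2, 32.6 and 15.7 in resistant tumors. In the fit of all probe sets it changed by -2.38 ± 0.56 in tumors (adjusted p = 0.0206) and had a difference of 1.87 ± 0.56 between resistant tumors and tumors (adjusted p = 0.68).

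Of the adipocyte markers tested, Adipoq, Car3 and Lpl had group means in the same order as Thrsp, and Lipe did so by a small margin. Of 12 listed markers, 10 had a probe set and 6 were tested, of which 3 fell in tumors (19.1% of all tested genes did). None of the 6 passed the test in resistant tumors or between the tumor groups. The median change of the 6 was -1.63 in tumors and -0.66 in resistant tumors, and the median difference between the tumor groups was 0.96, with all 6 above 0 (the median of all genes was -0.016). The summed signal of the 10 was 1510 to 1720 in normal thymus, 661 to 1220 in tumors and 1050 to 1990 in resistant tumors. Adipoq, the adipocyte hormone adiponectin, had signals of 52.0, 93.7 and 74.9 in normal thymus, 3.36, 17.4 and 2.83 in tumors and 70.9, 24.9 and 13.8 in resistant tumors. Its log2 change was -3.70 ± 0.75 in tumors (limma adjusted p = 0.00335), and differed by 2.40 ± 0.75 between resistant tumors and tumors (adjusted p = 0.382). Car3, carbonic anhydrase of fat and muscle, read 409, 436 and 418 in normal thymus, 49.2, 179.6 and 32.4 in tumors and 407, 172 and 73.2 in resistant tumors. Lpl, lipoprotein lipase, read 325, 382 and 363, then 55.5, 175 and 178, then 219.9, 83.9 and 279.8 in the same groups. Both fell in tumors (-2.67 and -1.57, limma adjusted p = 0.00985 and 0.0314). In resistant tumors the changes from normal thymus were -1.30 ± 0.75 for Adipoq, -1.29 ± 0.67 for Car3 and -1.04 ± 0.51 for Lpl (limma adjusted p = 0.194, 0.152 and 0.127). The resistant arrays of Car3 and Lpl all lay below their normal arrays, as did those of 25.7% of all genes. Retn, the adipocyte hormone resistin, had another order, with 54.9, 28.1 and 29.5 in normal thymus, 29.2, 14.8 and 3.12 in tumors and 87.4, 50.5 and 14.99 in resistant tumors, where the mean was highest. Lipe, hormone-sensitive lipase, had 52.1, 42.0 and 44.4, then 42.7, 39.9 and 28.6, then 38.4, 43.9 and 32.7, and differed little between the tumor groups. Neither Retn nor Lipe was called. Fabp4, also made by macrophages and endothelium, had 567, 698 and 707 in normal thymus, 441, 761 and 733 in tumors and 1114, 634 and 881 in resistant tumors, with overlapping groups. Resistant tumor 1 was the highest resistant array for Thrsp at its brightest probe set, Adipoq, Car3, Retn and Fabp4 (32.6% of all tested genes). For Lpl it was resistant tumor 3 (45.4%), and for Lipe and the second Thrsp probe set resistant tumor 2 (22%). Lep was under the array median on all 9 arrays, with signals of 0.512 to 3.19. The part of fat cells in the Thrsp result was not tested, and in bulk tissue fewer cells of a type and less RNA per cell cannot be told apart.

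**Figure D3:**
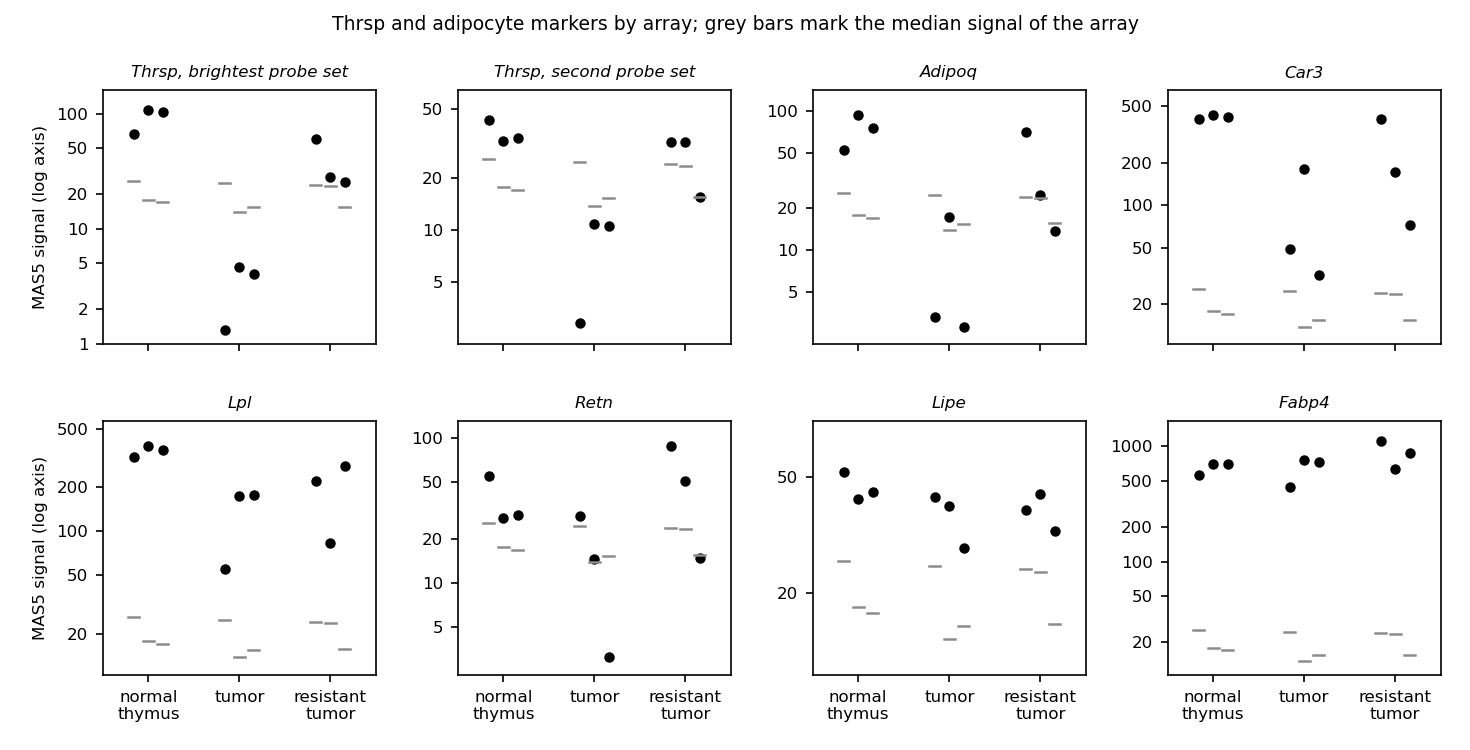
MAS5 signal on a log axis of the 2 brighter Thrsp probe sets and of the 6 tested adipocyte markers on each array, with replicates 1 to 3 of a group from left to right. Grey bars are the median signal of the array: the tumor points of Thrsp lie below them, and those of Adipoq lie below or close to them.

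Between resistant tumors and tumors, no member other than Thrsp passed the test (0.129% of all tested genes were higher and 0.231% lower). The changes of the other 28 members were -0.43 to 0.33 on the log2 scale, none had an unadjusted p under 0.05 (7.23% of all genes did), and the smallest adjusted p was 0.74. At the brightest probe set of each gene, without scaling between arrays, their unadjusted 95% intervals reached at most -0.90 for Tm7sf2 and 0.80 for Mvd. A difference of 2-fold or more lay outside these intervals for each of the 28. Some dimmer probe sets were less precise, as for Elovl6 (0.63 ± 0.27) and Idi1 (0.55 ± 0.48) in the fit of all 45101, and left 2-fold within reach. Under the other settings the median change of all tested members between the tumor groups was -0.28 to 0.064. Tm7sf2 had the lowest change, -0.43 ± 0.21, and Mvd the highest, 0.33 ± 0.21. For the cholesterol genes Hmgcs1, Fdft1 and Sqle the intervals were -0.46 to 0.37, -0.51 to 0.63 and -0.10 to 0.74. Srebf1 was the one member whose resistant arrays all lay below its tumor arrays (6.01% of all genes), with a log2 difference of -0.22 ± 0.12 (limma adjusted p = 0.772).

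The members also varied together within the 2 tumor groups. Resistant tumor 1 was the lowest resistant array for 22 of 29 members, against 37.8% of all tested genes, and resistant tumor 3 the highest for 20, against 45.4%. The median member on resistant tumor 1 was 0.27 below its group mean on the log2 scale, and on resistant tumor 3 it was 0.21 above, where the medians over all genes were -0.016 and 0.031. Among tumors, tumor 1 was the lowest for 18 members (44.2% of all genes) and tumor 2 the highest for 18 (33.8%). In normal thymus this was less marked: normal thymus 1 was the lowest array for 17 members (49.3%) and the highest for 7 (38.7%). Its median member had a deviation of -0.061 from the group mean, against -0.033 over all genes. The array of each group that was lowest for most members was one of those without spike-in signal. Even so, the median member lay above the normal mean by 0.64 to 0.96 on each of the 6 tumor arrays, with 23 to 27 of 29 members above it. The ratio of the 3′ to the 5′ probe set of Actb, a sign of RNA quality, was 3.16 in tumor 2, 2.64 in resistant tumor 3 and 1.63 to 1.98 on the other arrays, and its part in this order was not tested.

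The probe sets of the members were also counted together. These counts include the brightest probe set of each gene, used above, and so are not a separate check of the rise. Of the 68 probe sets, 56 passed the filter. When all 45101 probe sets were fitted, 34 of the 68 rose in tumors and 2 fell, both of Thrsp, all of them among the 56. Of all 45101 probe sets, dim ones included, 9.16% rose and 9.3% fell. Of the 11671 genes past the filter, 23.3% rose in tumors and 23.1% in resistant tumors. In resistant tumors 34 of the 68 rose and none fell, where 9.23% of all 45101 rose and 9.23% fell. None of the 12 dim probe sets was called against normal thymus in tumors, and no probe set of a member was called between the tumor groups (0.00222% of all probe sets were higher and 0.0155% lower). Of 19 members with more than 1 probe set past the filter, 7 (Acly, Cyp51, Fads2, Fdft1, Lss, Scd2 and Stard4) rose in tumors at each of them, Thrsp fell at both of its own, and 3 (Elovl6, Mvd and Srebf2) were not called at any. The other 8 (Acaca, Fads1, Hmgcs1, Hsd17b7, Idi1, Mvk, Sc5d and Scd1) were called at some and not at others. For Sc5d the second probe set read 72.7, 90.5 and 91.8 in normal thymus and 124, 184 and 143 in tumors, a rise of 0.81 ± 0.19 (adjusted p = 0.0217), while the brightest had a change of -0.0012.

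**Figure D4:**
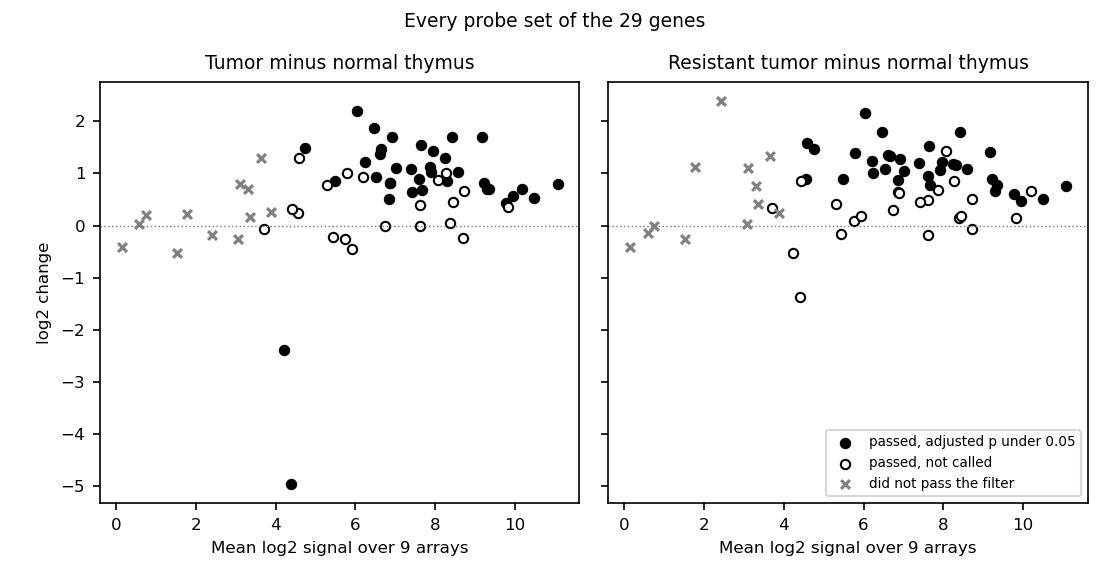
Log2 change of each of the 68 probe sets against its mean log2 signal, for tumors and for resistant tumors against normal thymus, from the fit of all 45101 probe sets. Filled points passed the filter and have an adjusted p under 0.05, open points passed and were not called, and crosses did not pass. The 2 filled points below 0 in the left panel are both Thrsp.

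Other genes of these pathways were taken from 6 lists, and no gene of any of them was called between the tumor groups. Their counts stand beside the 23.3% of all tested genes called higher and 19.1% called lower in tumors, and 23.1% and 20.2% in resistant tumors. Of 9 other cholesterol synthesis genes, 5 were tested and 2 rose in each kind of tumor: Msmo1, a sterol monooxygenase, by 0.87 ± 0.15 in tumors (limma adjusted p = 0.00119) and 1.004 ± 0.15 in resistant tumors (adjusted p = 0.000524), and Cyb5r3, a reductase that serves sterol and fatty acid enzymes, by 1.02 ± 0.30 and 1.01 ± 0.30 (adjusted p = 0.0207 and 0.0216). The median of the 5 was 0.20 in tumors and 0.15 in resistant tumors. Of the genes of SREBP processing and sterol uptake, 2 of 6 tested (33.3%) rose in each kind of tumor, with medians of 0.35 and 0.22. Mbtps2, a protease that cleaves SREBP, rose by 0.63 and 0.39 (adjusted p = 0.00404 and 0.0393), and Insig2 by 0.48 and 0.49 (adjusted p = 0.0273 and 0.0265).

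Genes of the sterol-sensing receptor LXR and of sterol export went the other way, with 4 of 7 lower and 1 higher in tumors and 3 lower and 1 higher in resistant tumors. The median of this list was -0.79 in tumors and -0.50 in resistant tumors. Mylip, an LXR target that encodes a ubiquitin ligase, had signals of 712, 851 and 895 in normal thymus, 268, 287 and 356 in tumors and 341, 275 and 465 in resistant tumors. It changed by -1.44 ± 0.20 (limma adjusted p = 0.000325) and -1.21 ± 0.20 (adjusted p = 0.000902). Abcg1, a cholesterol exporter, had 593, 563 and 577 in normal thymus, 315, 298 and 264 in tumors and 334, 304 and 267 in resistant tumors. It changed by -0.99 ± 0.12 (adjusted p = 0.000148) and -0.94 ± 0.12 (adjusted p = 0.000199), with no overlap. Rxra, the partner receptor, rose by 1.11 and 0.85 (adjusted p = 0.000544 and 0.00245).

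In the list of sterol trafficking, esters and oxysterols, 3 of 9 fell in tumors, and 1 fell and 1 rose in resistant tumors, with medians of -0.10 and -0.15. Lipa, the lysosomal lipase that frees cholesterol from esters, changed by -1.73 ± 0.15 (limma adjusted p = 2.09e-05) and -1.67 ± 0.15 (adjusted p = 2.64e-05). Cyp27a1, a sterol hydroxylase, was at least 2.04-fold lower in tumors (adjusted p = 0.0183), Npc1, a lysosomal cholesterol exporter, changed by -0.44 there (adjusted p = 0.0392), and Hsd3b7 rose by 0.67 in resistant tumors (adjusted p = 0.0295). Of 21 other fatty acid and lipid synthesis genes, 6 (28.6%) rose and 2 fell in tumors, and 6 rose and 1 fell in resistant tumors, with medians of 0.14 and 0.27. The share that rose was near that of all genes. Me1, the malic enzyme that supplies NADPH, was at least 2.8-fold lower in tumors (adjusted p = 0.0075) and changed by -1.58 ± 0.56 in resistant tumors (adjusted p = 0.0457). Elovl7 was at least 1.46-fold lower in tumors (adjusted p = 0.0492). It passed the filter through the normal arrays alone, and so could pass it only by being higher there. Cyp27a1 and Me1 were above the array median on the 3 normal arrays and 1 resistant array, and Mlxipl on tumor and resistant arrays alone. Mlxipl, the carbohydrate-responsive factor of lipogenesis, was at least 1.71-fold higher in tumors and at least 2.1-fold higher in resistant tumors (adjusted p = 0.0103 and 0.00461), and Agpat2, which builds phosphatidic acid, rose by 1.55 in resistant tumors (adjusted p = 7.31e-05). Of 9 fatty acid oxidation genes, 2 fell in each kind of tumor, a share near that of all genes, and none rose, with medians of -0.026 and 0.26. Acadl, an acyl-CoA dehydrogenase, changed by -0.69 and -0.51 (adjusted p = 0.0013 and 0.00683) and Acadm by -0.44 and -0.40 (adjusted p = 0.00868 and 0.0132).

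The cell makeup of the groups differed. The summed signal of 9 thymic epithelial markers was 5390 to 5760 in normal thymus, 91.4 to 336 in tumors and 98.1 to 161 in resistant tumors, with 6 of the 9 below the array median on all arrays of each tumor group. Of these 9 markers 8 fell in each comparison with normal thymus. Of all tested genes 19.1% were lower in tumors and 20.2% in resistant tumors. Foxn1, Psmb11, Pax1 and Aire passed the filter on dim probe sets through the normal arrays alone, and so could pass it only by being higher there. For 10 thymocyte markers it was 16100 to 17400, 11400 to 11600 and 9490 to 12000 in the same order, a sum of opposite changes. Ptcra, the pre-T cell receptor chain, rose 8.05-fold in tumors and 6.79-fold in resistant tumors (limma adjusted p = 3.05e-07 and 5.61e-07), and Cd3d, Cd3e and Cd3g were not called. The other 6 fell in each kind of tumor: in tumors Cd8a was at least 125-fold lower and Cd8b1 at least 156-fold, Cd4, Cd5 and Rag2 changed by -6.00, -5.05 and -3.19 there on the log2 scale, and Rag1 by -0.54. The sum of 4 B cell markers was 229 to 230, 18.9 to 75.4 and 56.1 to 77.1, and 4 of them fell in tumors and 1 in resistant tumors. Cd79a, Cd79b and Ms4a1 also passed the filter through the normal arrays alone, as did the thymocyte markers Cd8a and Cd8b1. Fibroblast markers were 1100 to 1200 in normal thymus, 2280 to 5280 in tumors and 2710 to 6620 in resistant tumors. The collagens Col1a1, Col1a2 and Col3a1 rose in both kinds of tumor and gave most of the sum there, while Dcn, decorin, changed by -1.14 in tumors (limma adjusted p = 0.0635) and -1.28 in resistant tumors (adjusted p = 0.0401), and Lum, lumican, by -0.0022 and 0.25 (adjusted p = 0.996 and 0.574). Macrophage markers were 1780 to 2250, 1140 to 1940 and 1270 to 2320, with 1 of 9, Mertk, lower in each kind of tumor. Endothelial markers summed to 249 to 278, 249 to 290 and 246 to 357, again over opposite changes: Pecam1, which gave most of the sum in normal thymus, changed by -0.89 and -0.58 (adjusted p = 0.00541 and 0.0408), while Cdh5, Kdr and Emcn rose in both. Emcn passed the filter through the arrays of the tumor groups alone, and so could pass it only by being higher there. Brown adipocyte markers were 146 to 157, 452 to 580 and 223 to 320, where Elovl3 gave most of the sum in tumors. The part of these shifts in the members' changes was not tested.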

How the data were processed

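The deposited file holds linear intensity values for 45101 probe sets, which the authors computed with MAS5, per the submitters' processing notes. Neither its version nor its scaling target is stated: they were not given in the sources used here. Signals were floored at 1 and log2 transformed without normalizing between arrays. The platform's gene table gives 1 symbol to 34945 probe sets and several to 932, and 64 control rows were set aside. Probe sets at or above the array median on 3 or more arrays were kept (20917 of those with 1 symbol), and each gene was read from its brightest.

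Group means were modelled over the 9 arrays with limma 3.58.1 (R 4.3.3; 6 residual degrees of freedom; intensity trend), with two-sided contrasts and Benjamini-Hochberg adjustment over 11671 genes. The model was tested on simulated data. Where a gene lay under the array median on each array of a group, its fold is a bound: the brighter group's mean log2 signal less the mean, per array, of the larger of the gene's signal and that median. In tumor 1 the control rows followed a different order (correlation with the other arrays -0.286 as deposited, 0.914 once sorted by name) and were read once sorted.

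The members, lists and tests were chosen with earlier results of these data known. Members were described with every array's value where a called log2 change was 1 or more in size or the gene was a regulator, and up to 3 called genes were named per pathway list and comparison. The promoter motifs were chosen after the values were seen. Figures used matplotlib 3.10.9 (Python 3.11.15). The other settings tried were a floor of 10, an offset of 50 ahead of the log, quantile normalization or array medians set equal, a filter at the 75th percentile or none, a fit without the trend, averaged probe sets, a fit of the 2 groups compared alone, a block for replicate number or spike-in set, and omission of each array in turn.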

Additional observations from a re-analysis of the deposited data

Results flagged for a closer look

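Thrsp was the one member for which the tumor groups' differences from normal thymus were themselves called different: resistant tumor minus tumor was 3.59 ± 0.53 on the log2 scale (limma adjusted p = 0.0271), with tumor signals of 1.32, 4.70 and 4.04 below the array medians and resistant signals of 60.9, 28.2 and 25.7. The call was lost under 13 alternatives (limma adjusted p up to 0.549), and the second probe set was not called (0.68 in the fit of all probe sets). Against the array medians as a bound, resistant tumors were at least 2.02-fold higher at the brightest probe set. Within the arrays without spike-in signal the difference was 4.97, and within those with it 2.56. No group held more than 3 arrays, so no array was checked as an outlier within its group.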

How the results depend on the processing

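No called change of a member turned its sign under any alternative: of 944 values, 868 stayed on their side of the threshold or within the spread, 53 were no longer called and 23, taken within a spike-in set and without a test, moved by more than the spread. Equal array medians had the largest effect on the counts against normal thymus, with 12 members higher in tumors and 4 in resistant tumors and 2287 and 2034 genes called; the cause was not tested. With that setting the median of all genes was 0.24 in tumors, 0.0021 in resistant tumors and -0.26 between the tumor groups. Between the tumor groups 18 genes were called (4 higher and 14 lower, against 15 and 27 without it), and no member. No member was called there with quantile normalization, the offset of 50, a floor of 10, no filter (22 genes called), the mean over probe sets (27), the 2 groups alone (8) or the 75th percentile filter (23), which left Thrsp out, so that 0 members fell in tumors. With the offset, the floor of 10 or the 2 groups alone, 1 member, Thrsp, was lower in resistant tumors than in normal thymus. The spike-in set as a block called 143 genes between the tumor groups.

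Same-numbered arrays of different groups had deviations correlated at -0.337 to 0.654, at 0.371 to 0.654 within a spike-in set and -0.337 to -0.301 across sets. Arrays with other numbers had 0.362 to 0.532 within a set. The correlations followed the spike-in set, so they cannot decide whether the replicate numbers pair the arrays. With the replicate block, 23, 21 and 1 members were higher in tumors, in resistant tumors and between the tumor groups, and 92 genes were called in the last. Over the other settings, this block among them, up to 6854 genes were called in tumors and up to 6862 in resistant tumors. Leaving out 1 array gave 18 to 23 members higher in tumors, 18 to 23 in resistant tumors and 0 to 1 between the tumor groups, 1 lower in tumors in every case and 0 to 1 lower in resistant tumors, and 3490 to 5332, 3496 to 5331 and 8 to 65 genes called. Those between the tumor groups numbered 22 without normal thymus 2, 19 without normal thymus 3, 8 without tumor 2, 10 without tumor 3 and 65 without resistant tumor 3. Without normal thymus 2 the other Thrsp probe set was the brighter one, and its change between the tumor groups was 1.87 (limma adjusted p = 0.549). Signals near or below the array median, as for Thrsp in tumors, give only bounds.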

Other observations

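Elovl3, an elongase of very long chain fatty acids that was listed here only as a brown adipocyte marker, was singled out after its values were seen. Its signals were 23.6, 15.1 and 14.7 in normal thymus, 380.0, 435 and 520.2 in tumors and 247, 169 and 192 in resistant tumors. The normal arrays were all below the array median, so Elovl3 was at least 22.2-fold higher in tumors (limma adjusted p = 8.54e-07) and at least 10.1-fold higher in resistant tumors (adjusted p = 3.87e-06). It passed the filter on dim probe sets through the arrays of the tumor groups alone, and so could pass it only by being higher there. Between the tumor groups the resistant arrays were all lower, and the difference of -1.14 ± 0.23 did not pass the test (adjusted p = 0.1). Dio2, the deiodinase that activates thyroid hormone, had 30.4, 21.9 and 28.0 in normal thymus and 39.6, 48.9 and 53.1 in tumors and rose there by 0.82 ± 0.29 (adjusted p = 0.0434). The other genes of that list went down or were dim. Cidea had 34.1, 39.4 and 27.5 in normal thymus and 12.0, 3.39 and 0.434 in tumors and was at least 1.91-fold lower (adjusted p = 0.0265). Cidea passed the filter on dim probe sets through the normal arrays alone, and so could pass it only by being higher there. Cox8b had 51.4, 63.7 and 61.8 in normal thymus and 15.1, 7.22 and 6.42 in tumors and was at least 3.36-fold lower (adjusted p = 0.00174). Ucp1, the gene that defines brown fat, was below the array median on all 9 arrays, with signals of 0.323 to 17.3.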
